A study of Macaca mulatta with 28 samples.

Results

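Hippocampal gene expression was compared between an older and a younger group of male rhesus macaques (*Macaca mulatta*), which the authors call OC and YC. Of 28 animals with a library, 18 were used: 10 YC animals of 8.06–14.72 years and 8 OC animals of 19.96–27.76 years. Membership followed the number in each animal's title, and the means of these animals equalled the columns that the authors labelled mean.YC and mean.OC. The labels give species, sex, tissue and age, no treatment and no meaning for the abbreviations, and the other 10 animals, which belong to groups that the authors call OTDHEA and ONTC, entered no comparison. The labels name hippocampus for every animal, with 1 stranded mRNA library each. The study's methods give the tissue as frozen mid-body hippocampus of the right hemisphere, taken post mortem, but they describe fewer animals and an old group without the youngest OC animals, so it is not stated that this holds for all 18. Each animal is therefore 1 replicate. The OC group spans a wide age range, with 5 animals of 23 years or more and 3 animals of 19.96, 20.07 and 22.81 years.

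The hippocampus serves the formation of memory and is one of the brain regions richest in receptors for cortisol, the main glucocorticoid of primates. Cortisol reaches these receptors from the blood and from local regeneration, in which the enzyme encoded by *HSD11B1* reduces inert cortisone. In the ageing brain, astrocytes and microglia, the support and immune cells of the tissue, are known to shift towards reactive states that are recognised by genes such as *GFAP* and *SERPINA3*. The comparison of OC with YC asks which genes and pathways differ in level between these age groups. Bulk tissue was measured, so fewer cells of a type and less RNA per cell cannot be told apart.

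The libraries held 31985094 to 122827614 reads on the listed genes in YC and 48122222 to 73779101 reads in OC. Levels are given as CPM, a gene's reads scaled to the same library total in every animal, and 3 reads correspond to 0.0244–0.0938 CPM depending on the library. Differences are OC minus YC in mean log2 values, so 1 stands for a doubling of the geometric mean. Of the defining genes of the tissue, the dentate granule cell gene *CALB1* had means of 80.1 ± 24.7 (SD, n = 10) CPM in YC and 99.3 ± 23.1 (SD, n = 8) CPM in OC, and the pyramidal cell gene *FIBCD1* had 195 ± 163 and 197 ± 161 CPM. Genes of neighbouring tissues were measured too. Several libraries stood apart. Mitochondrial genes took 11.8% of the reads of YC animal 1 and 9.65% of those of OC animal 11, against medians of 3.35% in YC and 3.04% in OC. At the other end were YC animal 45 at 0.553%, OC animal 15 at 0.676% and OC animal 44 at 0.390%. The ribosomal protein list reached 48161 CPM in YC animal 45 and, as the highest of OC, 21992 CPM in OC animal 44, and OC animal 15 held the thalamic genes *SHOX2* at 26.3 CPM and *TCF7L2* at 57.9 CPM. The choroid plexus gene *TTR* reached 4993 CPM in YC animal 3, 7165 CPM in YC animal 8 and 5445 CPM in OC animal 12. OC animal 14 had the highest *GFAP* and *COL1A1*, at 13220 and 37.8 CPM. YC animal 2 had the highest sum of interferon-stimulated genes, at 1425 CPM. The tests were repeated without YC 1, YC 45, OC 11 and OC 15 (below, the 4 libraries that stand apart, which do not include OC 44), without YC 45, OC 15 and OC 44 (the 3 libraries with few mitochondrial reads), without the 3 libraries rich in choroid plexus genes, and without OC animals 13 and 14.

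Over 16289 genes tested with limma, none (0%) differed between OC and YC at an adjusted p under 0.05, and the smallest adjusted p was 0.584. At an unadjusted p under 0.05, the threshold named in the study's methods, 399 genes (2.45%) differed, of which 180 (1.11%) were higher and 219 (1.34%) lower in OC. Where no gene differs, about 1 in 20 is expected under this threshold, which is more than the share seen. Since none passed the adjusted test in limma, each single gene below is a description of these animals with its error, and "higher" and "lower" refer to the unadjusted test unless a tool is named. The count tests on recovered reads passed more genes. The edgeR exact test gave 18 genes at an adjusted p under 0.05 (0.111%), 7 higher and 11 lower, and DESeq2 gave 26 (0.16%), 11 higher and 15 lower. The edgeR quasi-likelihood test gave none (0%) and 618 at an unadjusted p under 0.05. Genes entered the test when their mean over the 18 animals reached 0.3 CPM. Of the 399 genes, 22 (7 higher and 15 lower) had a mean under 0.3 CPM in 1 group and entered through the group in which they were high, so their differences describe the levels only. The same held for 3 of the 18 genes of the exact test and 4 of the 26 of DESeq2. All 18 genes of the exact test were among the 26 of DESeq2, and all 18 of the former but 23 of the latter were under an unadjusted p of 0.05 in limma. The direction of the calls depended on scaling: 45.1% of the limma calls were higher in OC on the deposited values and 31.9% after the values were set to equal upper quartiles.

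**Figure D1:**
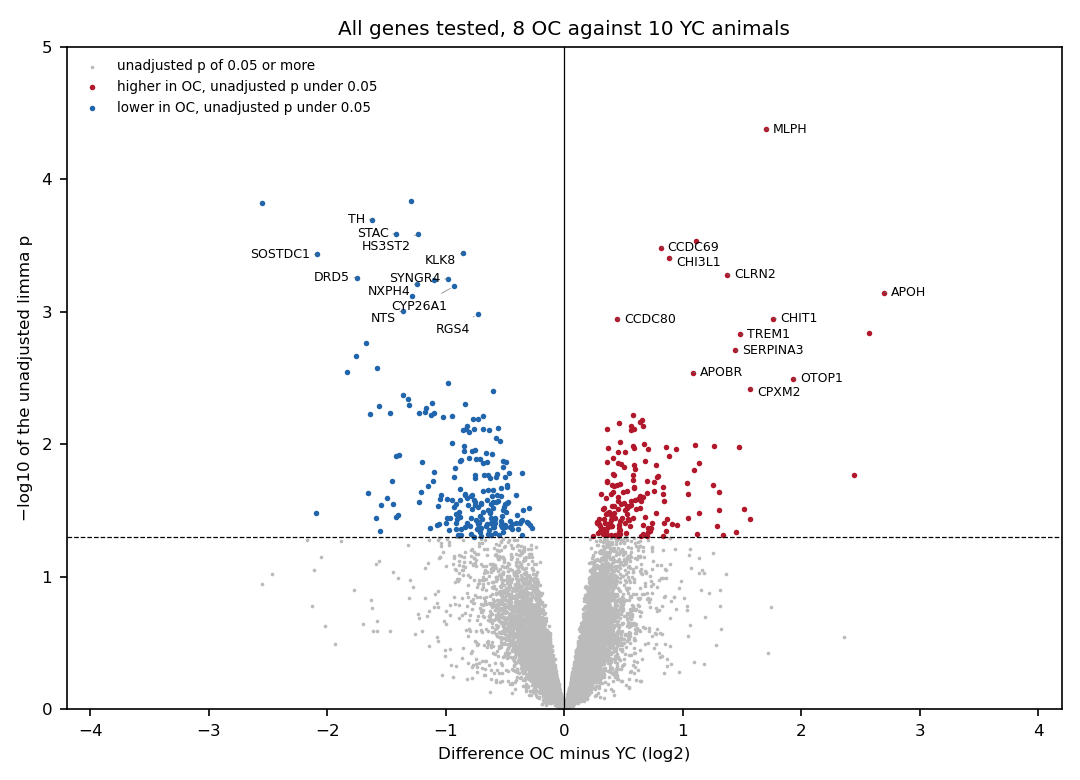
Each point is 1 of the 16289 genes tested, with the OC minus YC difference (log2) on the horizontal axis and the −log10 of the unadjusted limma p on the vertical axis. Red and blue points are the 180 higher and 219 lower genes above the dashed line at p = 0.05, and the named genes with the smallest p in each direction carry their symbols.

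Among the genes higher in OC, *MLPH* had the smallest p. It encodes melanophilin, an adaptor that links vesicles to myosin, and lies on chromosome 12 (chr12:124881411-124948748, plus strand; Mmul_10). YC animals had a lowest, median and highest level of 0.916, 1.94 and 7.10 CPM, and OC animals had 4.62, 7.01 and 11.3 CPM. All 8 OC animals lay above 8 of the 10 YC animals, and YC animals 3 and 5 reached into the OC range. The difference was 1.70 ± 0.33 (log2, SE; unadjusted p = 4.2e-05, adjusted p = 0.584), and the adjusted p was 0.0361 in DESeq2, 0.0695 in the edgeR exact test and 0.505 in the quasi-likelihood test. *CCDC69*, a coiled-coil protein gene, had 4.83, 6.41 and 10.6 CPM in YC and 7.32, 11.4 and 20.0 CPM in OC, and 5 OC animals lay above every YC animal. Its difference of 0.81 ± 0.19 passed both count tests, with adjusted p of 0.0473 in the exact test and 0.0173 in DESeq2.

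*CHI3L1*, another of the leading higher genes, encodes the chitinase-like protein YKL-40, which reactive astrocytes secrete. Its YC levels ran from 10.2 to 20.5 CPM with a median of 18, and its OC levels from 17.2 to 67.5 CPM with a median of 29.8. Of the 8 OC animals, 7 lay above every YC animal, with animal 17 the exception. The difference was 0.88 ± 0.21 (unadjusted p = 0.000394; adjusted p = 0.0455 in the exact test and 0.0173 in DESeq2). *CHIT1*, the gene of the macrophage enzyme chitotriosidase and a neighbour of *CHI3L1* on chromosome 1, had a median of 0.431 CPM in YC (0.175–1.6) and 1.26 CPM in OC (0.542–8.28), a difference of 1.76 ± 0.47. OC animal 13 was highest for both chitinase genes and for *SERPINA3*. *CHI3L1*, *CHIT1* and *CHI3L2* are related in sequence, and how reads matching several genes were counted is not given in the sources used here.

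*SERPINA3* (chr7:156782203-156794320, plus strand), the gene of α1-antichymotrypsin, a secreted protease inhibitor of the acute phase, ran from 13.4 to 86.0 CPM in YC with a median of 30.0, and from 30.5 to 265 CPM in OC with a median of 83.2. The groups overlapped, with 4 OC animals above every YC animal, and the difference was 1.44 ± 0.41 (unadjusted p = 0.00196). *TREM1*, a receptor that amplifies inflammatory signals in myeloid cells, was near the depth limit in YC, at 0.106–0.398 CPM with a median of 0.211, and ran from 0.183 to 1.52 CPM in OC with a median of 0.628. It entered the test through the OC animals, its mean being 0.223 CPM in YC, and the difference of 1.49 ± 0.41 is a description only. *CCDC80*, which encodes an extracellular matrix protein, had one of the smallest differences of this set, 0.44 ± 0.12, but little spread, with 27.6–40.2 CPM in YC and 33.9–55.6 CPM in OC. *APOH*, a plasma lipoprotein gene, had 0.0163–0.161 CPM in YC, under or near the level of 3 reads in several libraries, and 0.0989–4.02 CPM in OC, through which it entered the test. *OTOP1* entered the test in the same way, with means of 0.208 CPM in YC and 0.697 CPM in OC. *CLRN2*, *APOBR* and *CPXM2* completed the 12 higher genes, with differences of 1.37, 1.08 and 1.57. *CPXM2* no longer passed when OC was limited to animals of 23 years or more (difference 0.83, unadjusted p = 0.113).

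Among the genes lower in OC, *TH*, tyrosine hydroxylase, the rate-limiting enzyme of catecholamine synthesis, was scarce in both groups, at 0.203–0.625 CPM in YC (median 0.477) and 0.0790–0.406 CPM in OC (median 0.109). All 8 OC animals lay below the YC median, and 6 of them below every YC animal. It entered the test through the YC animals, its mean being 0.455 CPM in YC and 0.161 CPM in OC, and the difference of −1.62 ± 0.36 is a description only. *DRD5*, a dopamine receptor gene, had a median of 2.67 CPM in YC (0.537–4.81) and 0.702 CPM in OC (0.187–1.57), a difference of −1.75 ± 0.43. *NTS* (chr11:85501450-85508725, plus strand) encodes the neuropeptide neurotensin and ran from 9.63 to 67.5 CPM in YC (median 21.4) and from 5.49 to 18.5 CPM in OC (median 7.57). The difference was −1.36 ± 0.36, and 6 of 8 OC animals lay below every YC animal.

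*STAC* (chr2:11199592-11369176, minus strand), whose product binds calcium channels, separated the groups nearly completely. Its 10 YC animals lay at 0.632–2.76 CPM (median 0.893) and its 8 OC animals at 0.238–0.664 CPM (median 0.379), so that 9 YC animals were above every OC animal. The difference was −1.42 ± 0.33 (unadjusted p = 0.000258; adjusted p = 0.0455 in the exact test and 0.0173 in DESeq2). *HS3ST2*, an enzyme that sulfates heparan chains in neurons, ran from 1.80 to 5.60 CPM in YC (median 3.12) and from 0.608 to 2.21 CPM in OC (median 1.55), and again 9 YC animals were above every OC animal (difference −1.24 ± 0.28). *KLK8*, the gene of neuropsin, a protease of hippocampal synapses, had a median of 15.1 CPM in YC (7.04–20.4) and 7.53 CPM in OC (5.76–13.4), a difference of −0.85 ± 0.20.

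*RGS4*, which shortens G-protein signals and was the most abundant of the lower genes named so far, had 111–308 CPM in YC (median 199) and 94.0–169 CPM in OC (median 115), a difference of −0.73 ± 0.19. All 8 OC animals lay below the YC median. *NXPH4*, which encodes a neurexophilin, and *CYP26A1*, an enzyme that degrades retinoic acid, differed by −1.24 ± 0.31 and −0.93 ± 0.23, each with 7 of 8 OC animals below every YC animal. *SOSTDC1*, a secreted antagonist of BMP and WNT signals, differed by −2.08 ± 0.49. Its highest level in YC was 6.41 CPM in animal 3 and in OC 1.32 CPM in animal 12, which are 2 of the 3 animals rich in choroid plexus genes. The next YC levels were 5.08 CPM in animal 45, which is not among those 3, and 4.32 CPM in animal 8, which is. *SYNGR4*, a synaptogyrin gene, differed by −0.99 ± 0.24.

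**Figure D2:**
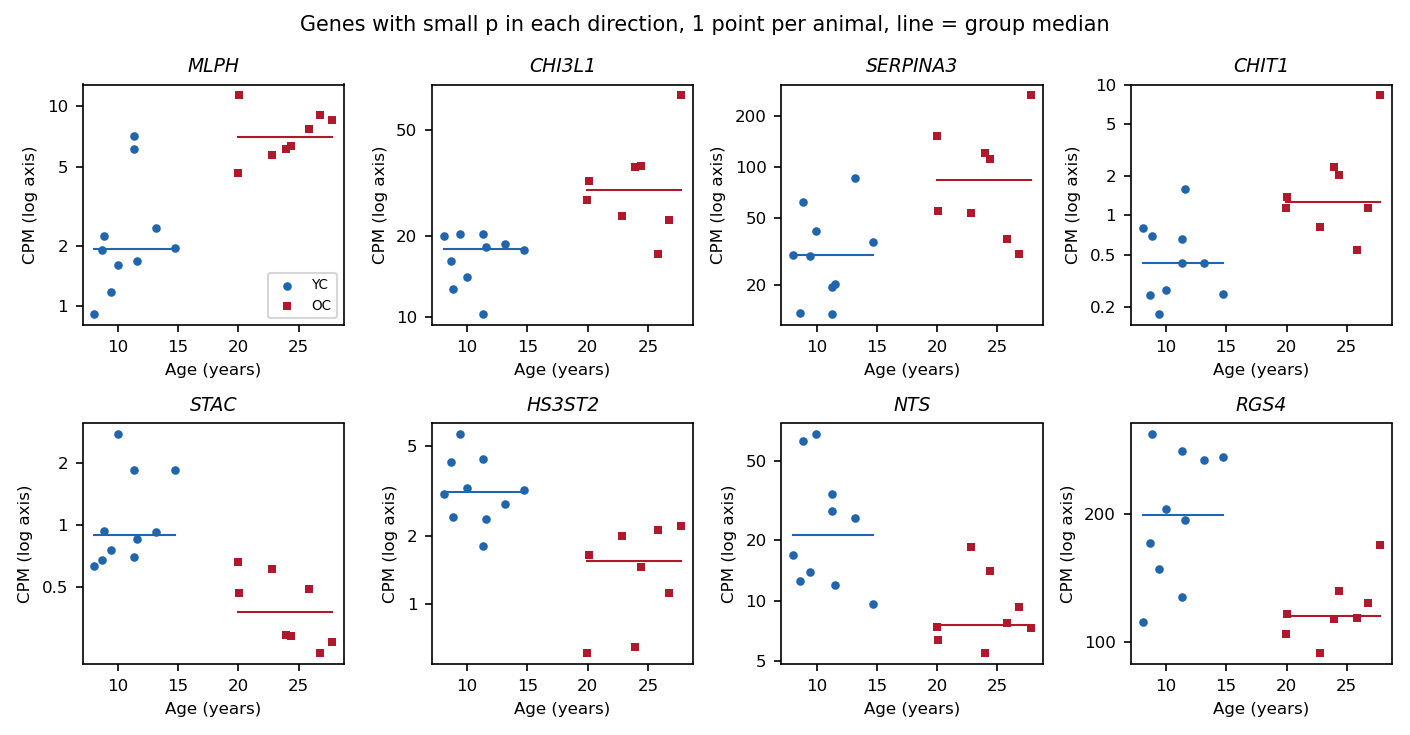
CPM on a log axis against age in years for 4 genes higher in OC (top row) and 4 lower in OC (bottom row), with 1 point per animal, circles for the 10 YC and squares for the 8 OC animals, and a line at each group's median. In *STAC* and *HS3ST2*, 9 of 10 YC animals lie above all 8 OC animals, and OC animal 13, the oldest, is highest for *CHI3L1*, *SERPINA3* and *CHIT1*.

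The genes of cortisol supply and reception were described next, since they are the subject of the series. *HSD11B1* (chr1:67209536-67239875, plus strand) ran from 3.16 to 8.55 CPM in YC with a median of 7.36. In OC it ran from 1.91 to 14.3 CPM with a median of 10.3. The lowest level of all 18 animals was that of OC animal 14, and the other 7 OC animals lay between 7.21 and 14.3 CPM. The mean difference was 0.47 ± 0.32 (95% interval −0.19 to 1.13; unadjusted limma p = 0.154), and the exact permutation test over all 43758 assignments of animals gave a two-sided p of 0.199. Without animal 14 the difference was 0.78 (exact permutation p = 0.00273), and with the 5 OC animals of 23 years or more it was 0.65 (exact permutation p = 0.0196). It was 0.20 (exact permutation p = 0.645) without the 4 libraries that stand apart and 0.31 (exact permutation p = 0.457) without the 3 libraries with few mitochondrial reads. Both settings kept OC animal 14. The 4 left out held OC animals 11 and 15, at 13.5 and 12.7 CPM, and YC animals 1 and 45, the lowest and highest of YC. The 3 left out held OC animal 15, OC animal 44, the highest of OC, and YC animal 45. In YC, the 3 lowest levels were those of animals 1, 2 and 4, which are the 3 oldest of that group at 14.72, 13.16 and 11.56 years.

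*H6PD* encodes the enzyme that supplies *HSD11B1* with its cofactor in the endoplasmic reticulum, and its levels of 4.42–9.53 CPM in YC and 5.86–10.3 CPM in OC were centred at 7.43 and 7.28 CPM, with a difference of 0.04 ± 0.16 that changed sign with the scaling. *NR3C1*, the glucocorticoid receptor gene, had 28.8–82.9 CPM in YC (median 46.8) and 40.9–69.7 CPM in OC (median 55.0), a difference of 0.12 with a 95% interval of −0.30 to 0.54 and an exact permutation p of 0.570. *NR3C2*, the gene of the mineralocorticoid receptor, which binds cortisol with higher affinity, had 28.4–135 CPM in YC (median 74.6) and 70.9–134 CPM in OC (median 84.0), a difference of 0.36 with an interval of −0.13 to 0.85 and an exact permutation p of 0.180. These intervals leave room for differences in either direction for both receptors. The *NR3C2* difference was 0.0025 without the 4 libraries that stand apart and 0.16 without the 3 with few mitochondrial reads.

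*FKBP5*, a chaperone that lowers the receptor's affinity for cortisol and is itself switched on by glucocorticoids, was the member of this system with the smallest p. YC animals ran from 14.1 to 44.2 CPM with a median of 22.8, and OC animals from 22.4 to 46.0 CPM with a median of 39.6. The groups overlapped over most of their range, although 7 of 8 OC animals lay above the YC median, and the difference was 0.59 ± 0.24 (unadjusted p = 0.0210, adjusted p = 0.987). Without OC animals 13 and 14 it was 0.51 and no longer passed (unadjusted limma p = 0.0708). *FKBP5* was 1 of 16 measured members of the glucocorticoid supply and receptor list (18 genes) at this level, where 1.11% of all genes were higher, with none lower and a list median of 0.10, against 0.05 over all genes. In the list of glucocorticoid-responsive genes it was likewise the 1 member of 28 measured (of 30) that passed, none (0) passed without OC animals 13 and 14, and 23 of the 28 differences were positive, with a median of 0.12. Over all genes 60.0% of differences were positive.

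**Figure D3:**
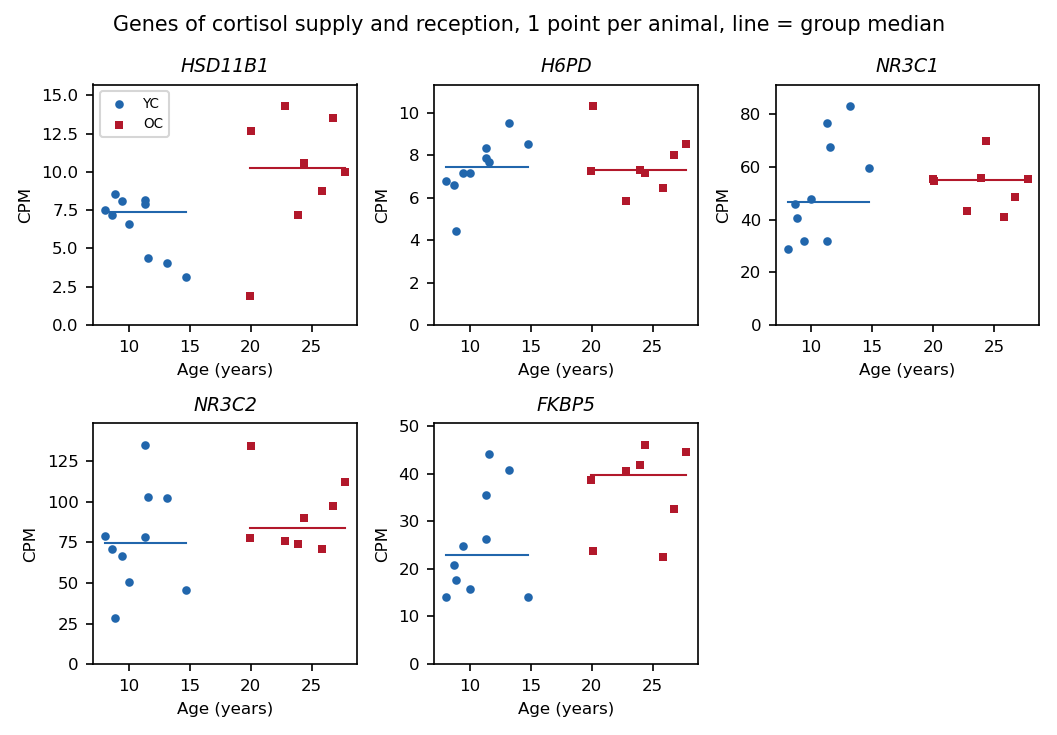
CPM on linear axes that start at 0 against age in years for *HSD11B1*, *H6PD*, *NR3C1*, *NR3C2* and *FKBP5*, with 1 point per animal (circles YC, squares OC) and a line at each group's median. OC animal 14, at 19.96 years, has the lowest *HSD11B1* level (1.91 CPM) while the other OC animals lie at 7.21 CPM or more.

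The pathway list with the largest share of higher members was that of reactive astrocytes, cells that enlarge and build up intermediate filaments when tissue is stressed. Of 18 measured members (of 20), 6 were higher in OC at an unadjusted p under 0.05 and none lower, where 1.11% of all genes were higher. The 6 were *CHI3L1*, *SERPINA3*, *NES*, *CD44*, *GFAP* and *CHI3L2*, and the median of the list was 0.33. *GFAP* (chr16:56169389-56180984, minus strand), the gene of the astrocyte's main intermediate filament, ran from 3053 to 6312 CPM in YC with a median of 4078, and from 3646 to 13220 CPM in OC with a median of 6159. The difference was 0.58 ± 0.23 (unadjusted p = 0.0187), and without OC animal 14 it was 0.42 and no longer passed. *NES*, which encodes nestin, a filament of progenitors and reactive astrocytes, had 8.69–26.8 CPM in YC (median 21.1) and 18.8–39.0 CPM in OC (median 31.1), a difference of 0.59 ± 0.20. *CD44*, a receptor for hyaluronan, had 16.6–76.4 CPM in YC (median 41.1) and 32.9–132 CPM in OC (median 59.4), a difference of 0.77 ± 0.29. The groups overlapped in both genes, with 5 OC animals above every YC animal for *NES* and 2 for *CD44*. *CHI3L2* had means of 1.93 ± 0.90 (SD) CPM in YC and 3.74 ± 2.68 in OC. Not every member leaned the same way, since 3 of 18 were negative, among them *THBS1*, a secreted matrix protein gene, at −0.76 ± 0.40 (unadjusted p = 0.072).

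Of 10 measured markers of astrocytes in general, 3 were higher and 7 did not pass, where 1.11% of all genes were higher. The 3 were *SOX9*, a transcription factor of astrocyte nuclei, at 0.45 ± 0.16, *GFAP*, and *FGFR3*, a growth factor receptor, at 0.48 ± 0.22. The sum of the 10 markers was 7077–12202 CPM in YC (median 9039) and 7808–19646 CPM in OC (median 11839), with OC animal 14 highest, and the part of this in the reactive list was not tested. Without OC animal 14 only 1 of the general markers passed, and without OC animals 13 and 14 none (0) did. The reactive list had 6 higher members without the 4 libraries that stand apart and without the 3 with few mitochondrial reads. Of all genes 1.61% and 1.20% were higher there. It had 5 higher and 1 lower without the 3 libraries rich in choroid plexus genes, where 0.824% and 1.31% of all genes were. Without OC animal 14 alone, 4 were higher and 1 lower, where 0.964% and 1.29% of all genes were, and the list median was 0.17. Without OC animals 13 and 14, 3 were higher and 1 lower, where 0.669% and 1.16% of all genes were, and the list median was 0.13.

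The sequences upstream of 3 of these genes are shown because their products mark the reactive state and all 3 were among the 6 higher members. Each run is the 250 bases before the annotated gene start in RefSeq on Mmul_10, read 5′ to 3′ on the gene's strand, in lower case with motif matches in capitals: *CHI3L1* at chr1:60687111-60687360 (minus strand), *GFAP* at chr16:56180985-56181234 (minus strand) and *SERPINA3* at chr7:156781953-156782202 (plus strand).
CHI3L1: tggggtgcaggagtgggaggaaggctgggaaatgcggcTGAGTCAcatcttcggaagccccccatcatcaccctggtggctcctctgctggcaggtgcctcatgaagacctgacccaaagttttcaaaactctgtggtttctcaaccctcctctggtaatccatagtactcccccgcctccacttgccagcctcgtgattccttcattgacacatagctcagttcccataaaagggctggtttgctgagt
GFAP: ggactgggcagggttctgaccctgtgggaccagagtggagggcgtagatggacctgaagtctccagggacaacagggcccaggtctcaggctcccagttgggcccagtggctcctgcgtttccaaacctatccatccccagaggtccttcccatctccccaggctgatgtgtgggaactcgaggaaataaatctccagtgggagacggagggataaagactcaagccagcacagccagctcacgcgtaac
SERPINA3: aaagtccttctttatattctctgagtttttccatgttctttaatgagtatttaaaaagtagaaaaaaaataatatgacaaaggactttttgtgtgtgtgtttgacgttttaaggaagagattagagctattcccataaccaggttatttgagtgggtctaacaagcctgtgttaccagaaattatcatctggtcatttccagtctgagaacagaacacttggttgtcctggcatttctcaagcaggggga

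The motifs searched, on both strands, were TTCNNNGAA, the core letters bound by STAT factors, and TGANTCA, those bound by AP-1, and neither overlaps the other. The capitals in *CHI3L1* are an AP-1 match that ends 205 bases before the gene start. It was the only match of either motif among the 6 reactive astrocyte genes higher in OC. Of the upstream sequences of 20768 protein-coding genes, 5.98% held the STAT letters and 5.15% the AP-1 letters.

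Microglial activation genes, which cover phagocytosis and lipid handling, gave 4 higher members of 27 measured (of 30) and none lower, where 1.11% of all genes were higher, with a list median of 0.09. Of the 25 members with a mean of at least 0.3 CPM in both groups, 3 were higher. The 4 were *CHIT1*, *TREM1*, which entered the test through the OC animals, *ITGAX*, an integrin of activated myeloid cells, and *LPL*, a lipase of lipid-laden microglia. *ITGAX* had 0.569–2.84 CPM in YC (median 1.67) and 1.36–4.88 CPM in OC (median 2.10), a difference of 0.76 ± 0.30 with broad overlap. *LPL* had means of 93.4 ± 40.4 (SD) CPM in YC and 127 ± 27.1 in OC, a difference of 0.53 ± 0.22 (unadjusted p = 0.029). Without OC animal 13 alone 2 members passed, as many as without OC animals 13 and 14 and without the 3 choroid plexus-rich libraries. Of all genes 0.847%, 0.669% and 0.824% were higher in these settings. Without OC animal 14 alone the list median was 0.02. The general microglia markers did not share this direction. None of 11 measured markers passed, 7 were negative, and the sum was 343–562 CPM in YC (median 473) and 372–586 CPM in OC (median 418).

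The other immune lists gave few or no genes. None of 22 measured complement genes (of 25) and none of 23 measured antigen presentation genes (of 27) passed, with medians of 0.16 and 0.09 that were 0.04 and −0.004 without OC animal 14 and −0.01 in both without OC animals 13 and 14. The antigen presentation gene with the smallest p was *ERAP1*, a peptidase that trims antigens, at 0.43 ± 0.24. Of 37 measured interferon-stimulated genes (of 40), the antiviral gene *RSAD2* was lower, with 5.23–12.9 CPM in YC and 3.81–7.42 CPM in OC (difference −0.48 ± 0.19), none was higher and the median was 0.10, where 1.34% of all genes were lower. The *RSAD2* call was lost with OC animals of 23 years or more, without OC animal 44 and without the 3 choroid plexus-rich libraries. In the exact test the list median was −0.06, with 13 of 37 differences positive against 25 in the main test. Without YC animal 2, whose list sum of 1425 CPM was the highest of all, 5 members were higher and 1 lower, where 2.17% and 1.73% of all genes were, and the median was 0.29. Of the cytokine and NF-κB list 22 of 30 genes were measured, and none passed. *VCAM1*, an adhesion molecule for leukocytes, had the smallest p there, at 0.74 ± 0.37. Without the 4 libraries that stand apart, 3 of these 22 genes were higher, where 1.61% of all genes were. The 6 measured leukocyte markers of 14, too few for a reading of the list, had sums of 50.7–83.9 CPM in YC and 32.3–79.3 CPM in OC, and *CD4* and *TRAC* differed by −0.68 ± 0.39 and 0.18 ± 0.29.

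The cholesterol synthesis list, the enzymes and regulators that build sterols from acetyl-CoA, leaned one way with small differences. Of 22 measured members (of 25), 21 were positive, where 60.0% of all genes were. Of these 2 passed, where 1.11% of all genes were higher, none was lower, and the list median was 0.26. *LSS*, which closes the sterol ring, had 22.7–56.9 CPM in YC (median 42.5) and 41.8–75.2 CPM in OC (median 47.3), a difference of 0.40 ± 0.18. *MVK*, mevalonate kinase, had 11.2–21.5 CPM in YC (median 17.8) and 18.4–22.8 CPM in OC (median 21.3), a difference of 0.29 ± 0.13. All 8 OC animals were above the YC median for *MVK*. The median stayed between 0.20 and 0.30 under every setting run, while the number of members passing ran from 0 to 6, and it was 0, for example, without OC animals 13 and 14, with OC animals of 23 years or more, and in the exact test.

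**Figure D4:**
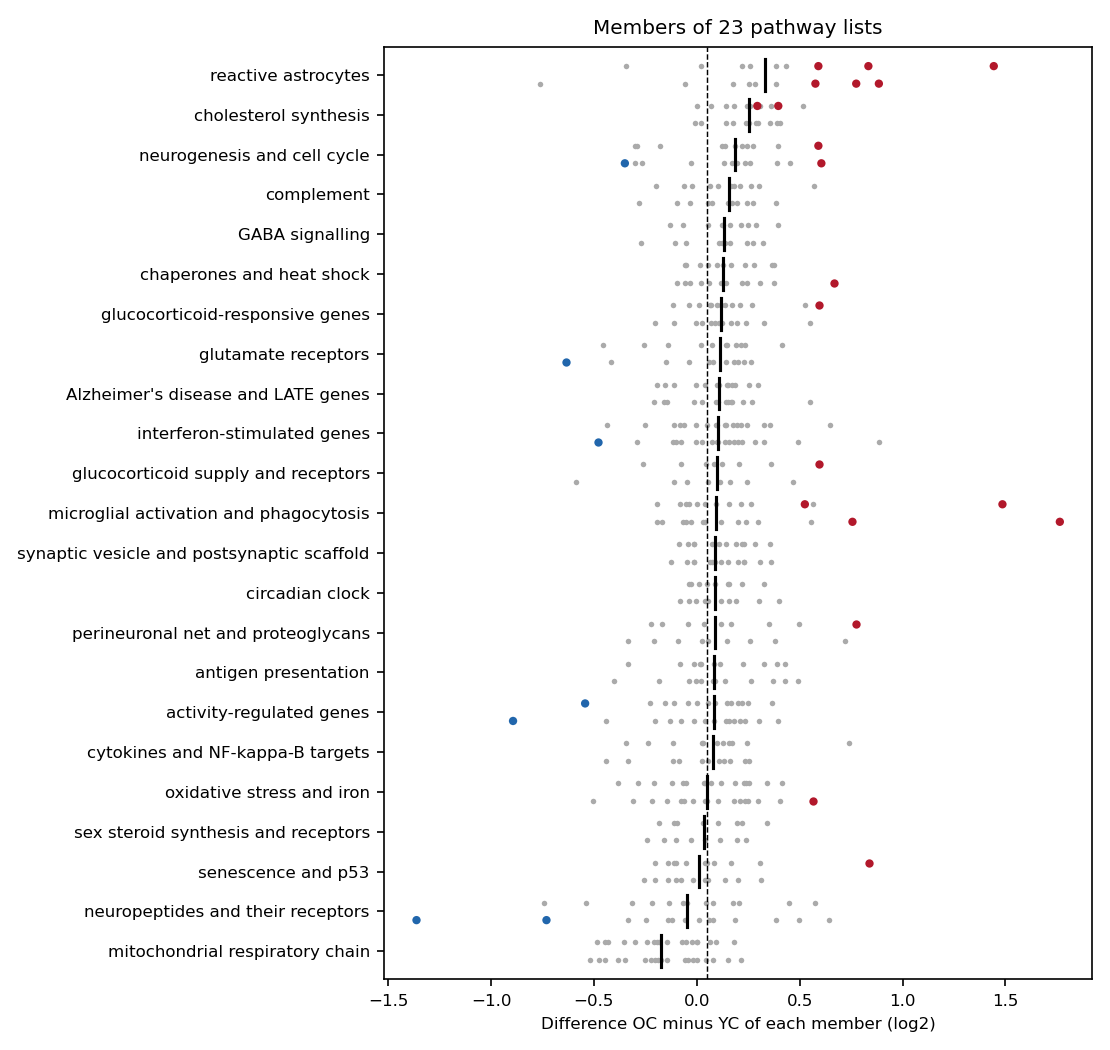
Each point is the OC minus YC difference (log2) of 1 measured member of the 23 pathway lists, ordered by list median (black bars), with the median of all genes (0.05) as a dashed line. Red and blue points are members higher or lower in OC at an unadjusted p under 0.05, and the reactive astrocyte list at the top holds 6 red points of 18 members.

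Most neuronal lists were centred near the median of all genes. Medians this small depended on the libraries used, since those of 12 of the 23 pathway lists and 11 of the 18 marker lists changed sign in at least 1 of 22 settings that left libraries out. The setting limited to OC animals of 23 years or more is not among these 22. Among 22 measured glutamate receptor genes (of 22), 1 was lower and none higher, where 1.34% of all genes were lower, and the list median of 0.11 became −0.05 without the 4 libraries that stand apart. The lower gene was *GRM8*, a presynaptic metabotropic receptor, with 2.49–15.3 CPM in YC (median 9.67) and 3.12–8.0 CPM in OC (median 5.49), a difference of −0.64 ± 0.30 that lost its call in 15 of the alternative settings. In the exact test 3 of the 22 receptor genes were lower, where 3.05% of all genes were. None of 20 GABA signalling genes and none of 29 measured synaptic vesicle and scaffold genes (of 30) passed, with medians of 0.13 and 0.09. The latter was 0.01 without YC animal 45 and −0.08 without the 4 libraries that stand apart. The smallest p of the vesicle and scaffold genes belonged to *CAMK2B*, a kinase of the postsynaptic density, at 0.36 ± 0.25. The neuropeptide list had 2 lower members of 27 measured (of 31) and none higher, where 1.34% of all genes were lower, with a median of −0.05 that became 0.10 without the 4 libraries that stand apart and −0.18 with OC animals of 23 years or more. In the alternative settings 2 to 4 members were lower, 4 for example at equal upper quartiles and in the exact test. In these 2 settings 1.87% and 3.05% of all genes were lower. The 2 lower members in the main test were *NTS* and *PTH2R*, a receptor for the peptide TIP39, which had 0.935–2.50 CPM in YC (median 1.42) and 0.542–1.13 CPM in OC (median 1.04), a difference of −0.73 ± 0.24.

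Genes that follow neuronal activity gave 2 lower members of 29 measured (of 30), where 1.34% of all genes were lower, and 1 lower member in most alternative settings. *NR4A2*, an orphan nuclear receptor, had 21.2–45.9 CPM in YC (median 30.3) and 10.8–28.3 CPM in OC (median 22.5), and all 8 OC animals lay below the YC median (difference −0.54 ± 0.19). *NPAS4*, an early-response transcription factor, had 0.768–2.95 CPM in YC and 0.339–5.03 CPM in OC, a difference of −0.89 ± 0.43. OC animal 13 had the highest *NPAS4* level of all, and the call was lost under 22 of the alternative settings. In the neurogenesis and cell cycle list, 23 of 26 genes were measured, *NES* and the nucleotide synthesis gene *TYMS* were higher, and *STMN2*, a tubulin regulator of growing axons, was lower, where 1.11% and 1.34% of all genes were higher and lower. *STMN2* had 717–1122 CPM in YC (median 932) and 465–953 CPM in OC (median 714), a difference of −0.35 ± 0.15. The call was lost in 6 alternative settings, among them those without YC animal 3, YC animal 6, OC animal 14 or OC animal 16. The perineuronal net and proteoglycan list had 1 higher member of 18 measured (of 19), where 1.11% of all genes were higher. It was *CD44*, which is also in the reactive astrocyte list and lost the call in 3 of the alternative settings. The net components of the list passed in neither direction.

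Of the lists of stress and ageing, chaperones had 1 higher member of 23 measured (of 26), and here and in the other lists of this group the share of all genes that were higher was 1.11%. It was *HSPB8*, a small heat shock protein that acts with BAG3 in disposing of misfolded proteins, with 29.4–68.9 CPM in YC (median 63.9) and 52.5–174 CPM in OC (median 77.5). The difference was 0.67 ± 0.22, and 6 OC animals lay above every YC animal. *BAG3* itself had means of 14.7 ± 3.03 (SD) CPM in YC and 19.7 ± 6.68 in OC (difference 0.38 ± 0.19, unadjusted p = 0.056). The senescence and p53 list had *CDKN2B*, an inhibitor of cell cycle kinases, as its 1 higher member of 22 measured (of 24). It was scarce, at 0.197–1.02 CPM in YC (median 0.351) and 0.424–1.43 CPM in OC (median 0.590), and all 8 OC animals lay above the YC median (difference 0.83 ± 0.34). The *CDKN2B* call was lost in 7 of the alternative settings, among them those without OC animal 16 or the 4 libraries that stand apart. In the oxidative stress and iron list, *AKR1B10*, an aldehyde reductase gene, was the 1 higher member of 33 measured (of 34), at 9.02–25.3 CPM in YC and 9.03–46.3 CPM in OC (difference 0.56 ± 0.24). Its highest level was that of OC animal 44. It lost the call in 7 of the alternative settings, among them those without OC animal 44, OC animal 16 or YC animal 6.

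None of 27 measured Alzheimer's disease and LATE genes (of 30), 19 clock genes or 16 measured sex steroid genes (of 20) passed. The smallest p in each was that of *TARDBP*, the gene of TDP-43, at 0.27 ± 0.15, *BHLHE41*, a repressor in the clock, at 0.40 ± 0.19 (unadjusted p = 0.0509), and *HSD17B4*, a peroxisomal enzyme, at 0.24 ± 0.15.

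The nuclear-encoded genes of the mitochondrial respiratory chain were negative in 29 of 37 measured members (of 40), with a median of −0.17 and none passing, and *COX7C*, a subunit of complex IV, had the smallest p at −0.48 ± 0.27. Ribosomal protein genes were negative in all 18 measured members (of 20), with a median of −0.39 and none passing. The sum of these ribosomal genes ran from 6575 to 48161 CPM in YC (median 14038) and from 7548 to 21992 CPM in OC (median 10741), and *RPS6* and *RPS27A*, its most abundant members, differed by −0.57 ± 0.43 and −0.46 ± 0.47. Without the 4 libraries that stand apart, the medians were −0.06 for the respiratory chain and −0.17 for ribosomal proteins, with 1 of 37 (higher in OC) and none of 18 members passing, where 1.61% of all genes were higher. In the edgeR exact test, where 3.05% of all genes were lower at an unadjusted p under 0.05, the medians were −0.30 and −0.73, with 3 and 6 members lower. The respiratory chain had 2 lower members without YC animal 2 or YC animal 4, where 1.73% and 1.84% of all genes were lower.

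Markers of other cell types and neighbouring tissues showed how the dissections compare. Neuron markers summed to 7208–14250 CPM in YC (median 13098) and 10874–14986 CPM in OC (median 12275), with *STMN2* the 1 lower member of 12, where 1.34% of all genes were lower, and *CAMK2A* and *SNAP25* differed by 0.30 ± 0.24 and 0.09 ± 0.16. Inhibitory interneuron markers summed to 544–1005 CPM in YC and 594–1072 CPM in OC, and *RELN* and *GAD1* differed by 0.19 ± 0.17 and 0.14 ± 0.17. The 8 dentate granule cell markers were all positive with a median of 0.29, which was 0.14 without OC animal 14 and 0.07 without OC animals 13 and 14, and their sums were 261–577 CPM (median 351) in YC and 317–543 CPM (median 446) in OC. None passed, including *CALB1* and *BTBD3* at 0.34 ± 0.19 and 0.15 ± 0.22. Markers of CA1 to CA3 pyramidal cells summed to 623–1834 CPM in YC and 692–1716 CPM in OC with medians of 974 and 983, and *PCP4* and *RGS14* differed by −0.46 ± 0.39 and 0.38 ± 0.40.

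Oligodendrocyte markers summed to 11648–22158 CPM in YC (median 15820) and 6167–21994 CPM in OC (median 17590), and the myelin gene *MBP* differed by −0.14 ± 0.28. Precursor markers summed to 406–963 CPM in YC and 552–728 CPM in OC, with *PTPRZ1* and *SOX10* at 0.26 ± 0.20 and 0.09 ± 0.20. In the microglia list *CSF1R* and *C1QB* stood at −0.16 ± 0.21 and −0.06 ± 0.17. Vessel and border cells gave no passing gene. Endothelial markers summed to 180–365 CPM in YC and 152–420 CPM in OC (*VWF* 0.27 ± 0.26, *SLC2A1* −0.12 ± 0.17), pericyte and smooth muscle markers to 108–341 and 89.5–387 CPM (*RGS5* 0.02 ± 0.24, *TAGLN* −0.08 ± 0.36), and meningeal fibroblast markers to 864–1530 and 910–4232 CPM (*PTGDS* 0.42 ± 0.27, *PDGFRA* 0.04 ± 0.16).

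Choroid plexus markers summed to 170–7833 CPM in YC (median 429) and 170–6405 CPM in OC (median 337), with 9 of 10 members negative and a median of −0.61, and *TTR* and *ENPP2* differed by −1.26 ± 1.12 and 0.22 ± 0.38. The ependymal list had *CCDC153* lower at −0.88 ± 0.37 among 9 measured members, where 1.34% of all genes were lower, and *PIFO* and *DNAH9* at −0.23 ± 0.30 and 0.14 ± 0.20. The *CCDC153* call was lost in 7 of the alternative settings. Its highest levels were 6.83 CPM in YC animal 8, 6.13 CPM in YC animal 3 and 5.69 CPM in YC animal 6. In OC the highest was 4.76 CPM in animal 12. YC 8, YC 3 and OC 12 are the libraries rich in choroid plexus genes. Thalamic markers summed to 24.7–48.9 CPM in YC and 25.7–160 CPM in OC, the upper end being animal 15, with *ZIC1* and *PRKCD* at 0.66 ± 0.34 and 0.02 ± 0.20. Blood was represented by 2 of 7 genes, *AHSP* and *HBA*, at 0.10 ± 0.24 and −0.12 ± 0.44. Skeletal muscle was represented by 6 of 10 genes, of which the myosin genes *MYH4* and *MYH1* and the actin gene *ACTA1* were lower, at −1.76 ± 0.50, −0.52 ± 0.24 and −0.52 ± 0.25, where 1.34% of all genes were lower, while *MYH7* and *TNNC2* stood at 0.42 ± 0.26 and −0.21 ± 0.27. *MYH1* and *ACTA1* lost the call in 15 and 14 of the alternative settings. *MYH4* and *MYH1* are neighbours of high sequence similarity on chromosome 16. The levels were low in both groups, with *MYH4* at 0.558–1.16 CPM in YC and 0.0141–0.740 CPM in OC, the lowest being under the level of 3 reads. The part of any of these cell types and tissues in the other results was not tested.

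**Figure D5:**
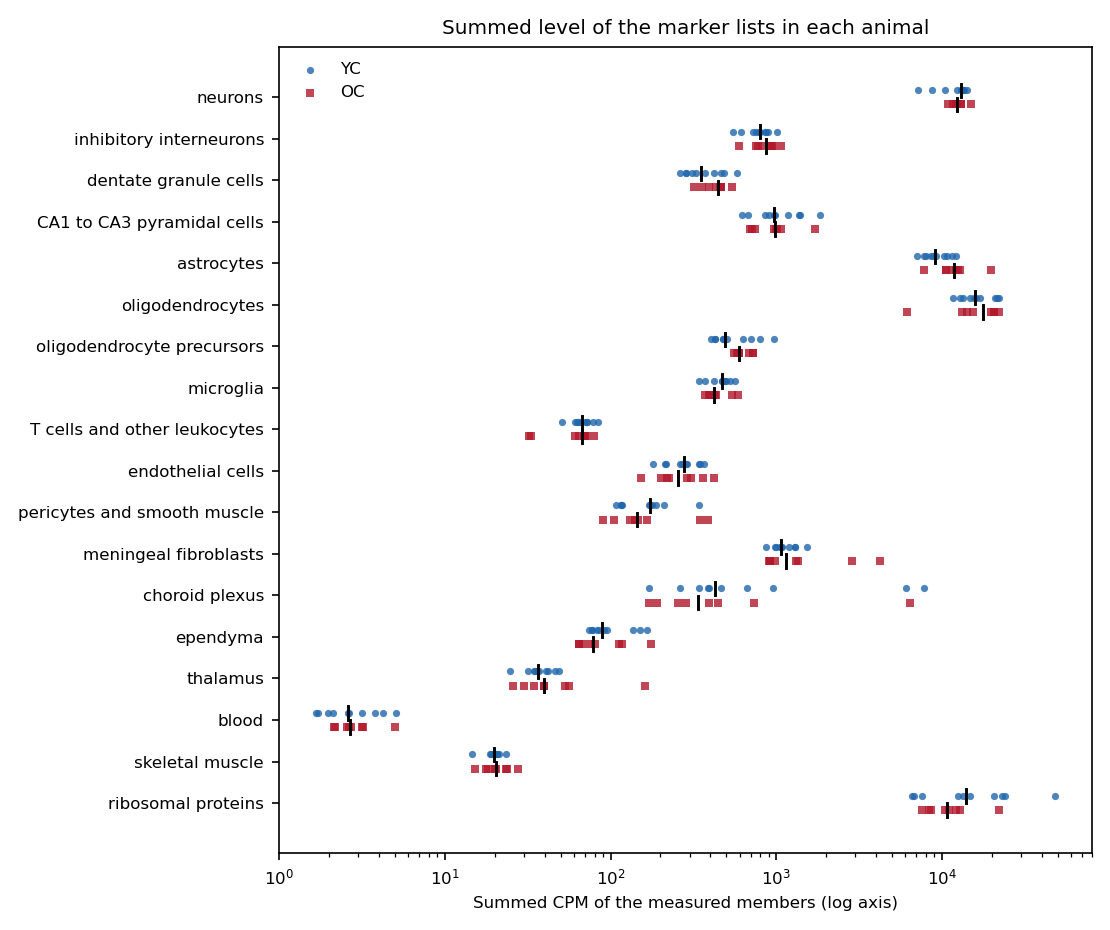
Summed CPM of the measured members of 18 marker lists on a log axis, with 1 point per animal (blue circles YC, red squares OC) and black bars at the group medians. The ranges of both groups overlap in every list, and single animals stand apart for choroid plexus (YC 3, YC 8 and OC 12), thalamus (OC 15) and ribosomal proteins (YC 45).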

How the data were processed

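Polyadenylated RNA of 28 hippocampi was sequenced in pairs after stranded library preparation. The authors aligned reads to Mmul_10 with STAR, counted them on Ensembl genes and normalized them with edgeR (the submitters' notes also list FastQC, featureCounts and DESeq2), whether counting used strand is not stated, and they deposited a table of normalized counts, a signal proportional to reads, for 16350 genes. No raw counts were used. Every animal's values sum to 75123723, so dividing by this total gives CPM, and the upper quartiles of the 18 animals differ by up to 1.36-fold. All values (100%, tolerance 1e-06) were whole reads times 1 factor per animal, from which the reads were recovered. No column of a single animal was left unmapped (0).

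The test was limma 3.58.1 (R 4.3.3, trended variance) on log2(value + 0.5) for genes whose mean level in the 18 animals reached 0.3 CPM, with Benjamini-Hochberg adjustment, and exact permutation tests for *HSD11B1*, *NR3C1* and *NR3C2*. On recovered reads, edgeR and DESeq2 were run as alternatives. On simulated reads for 16289 genes, limma recovered 68 of 100 genes changed by 1 and 97 of 100 changed by 2 (log2). It called 4 unchanged genes. Whether simulated reads spread between animals as the measured ones do was not tested. The shares therefore do not say how many differences of this size were missed in the 18 animals. There, *MLPH* and *SOSTDC1* differed by 1.70 and −2.08 (log2), each at an adjusted limma p of 0.584. The closest pair of libraries had a chi-square per degree of freedom of 84.4, so all were counted as separate. Labels name no separate cohorts or batches. The p-values measure the spread between these animals with 1 library each, and any part of library preparation or sequencing in it cannot be told apart.

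Named genes were *HSD11B1*, *H6PD*, *NR3C1*, *NR3C2* and *FKBP5*, the 12 genes with a symbol and the smallest p in each direction, up to 3 members per pathway list under an unadjusted p of 0.05 (otherwise the 1 with the smallest p), and for marker lists the 2 most abundant members and any under 0.05. Some genes that this rule picks are not reported here. *BAG3*, *THBS1*, *LPL*, *CHI3L2* and the genes that mark single libraries were added after their values were seen. The groups and the 23 pathway and 18 marker lists were chosen with earlier results of these data known, so lists are described by counts and medians without a test. Blank symbols of 561 genes were filled from the reference name table. Sequences and coordinates are from RefSeq on Mmul_10.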

Additional observations from a re-analysis of the deposited data

Results flagged for a closer look

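For the 57 genes examined, each group was searched for 1 animal far from the rest. Dixon's test was run at its 95% critical value on log2 values, not on the CPM shown here, on which the ratios differ. Chance alone passes about 1 in 20 groups, and 4 of 114 passed. *HSD11B1* in OC animal 14 was 1.91 CPM, with the next animal at 7.21 CPM. *H6PD* and *CAMK2B* in YC animal 45, the library rich in ribosomal protein reads, were 4.42 and 206 CPM. *SYNGR4* was high in OC animal 17, at 2.29 CPM.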

How the results depend on the processing

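No gene passed an adjusted p of 0.05 in limma under any pseudocount, scaling, filter, weight or continuous age setting, but the edgeR exact test gave 18 and DESeq2 26. With 1 animal left out the count was 0 to 1 (*MLPH* without YC animal 5, 1 gene without OC animal 17). The 399 genes under an unadjusted p of 0.05 became 820 with sample quality weights, 954 with age in years in place of the groups, 696 in the exact test, 618 in the quasi-likelihood test and 752 in DESeq2, and 305 to 661 with 1 animal left out, the highest counts being 661 without YC animal 4 and 635 without YC animal 2. Settings chosen after seeing the data left out the 4 libraries that stand apart (521 genes), the 3 rich in choroid plexus genes (347), the 3 with few mitochondrial reads (519) and OC animals 13 and 14 (298). The *HSD11B1* difference was 0.65 with OC animals of 23 years or more, 0.80 without OC animals 13 and 14, 0.20 without the 4 libraries, 0.31 without the 3 with few mitochondrial reads, and 0.36 to 0.78 with 1 animal left out, its highest value coming without OC animal 14. OC animal 14 was kept in the settings without the 4 libraries and without the 3. The H6PD log2 difference turned negative at equal upper quartiles (−0.0122), with TMM factors (−0.000127), in the exact test (−0.00720), without the 4 libraries (−0.109) and without the 3 with few mitochondrial reads (−0.0534), and ranged from −0.0366 to 0.0941 with 1 animal left out. Of the 46 named genes under an unadjusted p of 0.05, none reversed, 27 stayed under it in every setting run and 154 of 1470 values lost it. Without the 3 libraries with few mitochondrial reads, *GRM8*, *CDKN2B*, *CD44*, *AKR1B10*, *LSS*, *MVK*, *TYMS*, *NPAS4*, *CPXM2*, *CCDC153* and *ACTA1* lost it. The causes were not tested. No paired analysis was possible because OC and YC share no replicate numbers.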

Other observations

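Some genes outside the lists also had lower levels in OC. They were picked after the values were seen and are given with no test of the set. *CPLX3*, the gene of a complexin, had 6.04–56.8 CPM in YC (median 15.7) and 3.03–16.1 CPM in OC (median 7.14), the highest YC levels being 56.8 CPM in animal 1 and 32.0 CPM in animal 45, both of which stand apart. *MCHR1*, the receptor for melanin-concentrating hormone, had 5.1–9.82 CPM in YC (median 6.89), again highest in animal 1, and 1.45–7.25 CPM in OC (median 4.32). *RXFP1*, the relaxin receptor, had 2.61–32.4 CPM in YC (median 13.3), highest in animal 45, and 1.63–10.8 CPM in OC (median 4.52). Its adjusted p was 0.0272 in DESeq2, 0.0868 in the edgeR exact test, 0.689 in the quasi-likelihood test and 0.987 in limma. The part of these libraries and of the dissection in these levels was not tested.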
